A study of Mus musculus with 8 samples.

Results

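The genes described here are the protein-coding heat shock and DnaJ chaperones of the mouse: every protein-coding row of the deposited count table whose symbol starts with Hspa, Hspb, Hspd, Hspe or Hsph plus a number, with Hsp90, or with Dnaja, Dnajb or Dnajc plus a number. The rule found 72 genes among the 54532 rows of the table, without using any measured value. Another 14 rows with such names are not protein-coding and were left out. RNA was measured by bulk RNA-seq in the cortex of 8 male C57BL/6 mice at 8 months of age, housed singly, with 1 library per mouse. All 8 mice carried the PS19 transgene, which expresses a human tau isoform with a frontotemporal dementia mutation from the mouse prion protein promoter. In 4 of them the beta1-adrenergic receptor gene was unaltered (PS19, mice m677, m668, m665 and m659). The other 4 also carried 1 copy of a knock-in Adrb1 mutation made by CRISPR and known from familial natural short sleep (Adrb1+/m;PS19, mice m671, m661, m660 and m658). There were no mice without the transgene, so a value here describes cortex that expresses human tau in both groups.

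Chaperones hold, fold, refold or hand over other proteins. Hsp70 proteins bind short stretches of unfolded chain in a cycle driven by ATP; J-domain proteins (the Dnaja, Dnajb and Dnajc genes) bring them clients and start that cycle, and exchange factors such as the Hsp110 protein Hsph1 end it by releasing ADP. Hsp90 proteins act later, on kinases, steroid receptors and other clients that are nearly folded. Small heat shock proteins hold unfolded chains without ATP, and Hspd1 with Hspe1 forms a closed folding chamber in mitochondria. In neurons the Hsp70 and Hsp90 systems are known for binding tau, and Dnajc5 and Dnajc6 serve the synaptic vesicle cycle. After heat or other protein damage the factor Hsf1 raises the cytosolic chaperones, and stress in the endoplasmic reticulum (ER) raises the ER chaperones through a separate path, the unfolded protein response.

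The libraries held 14653222 to 21223754 counts on genes. Adrb1 RNA was 36.8 ± 4.19 CPM (a gene's counts scaled to the TMM-adjusted size of its library) in PS19 mice and 35.0 ± 3.71 CPM in Adrb1+/m;PS19 mice (mean ± SD, n = 4). A count over the gene cannot tell the mutant copy from the unaltered one, so it checks no label. Counts were made on the mouse genome, and the mouse tau gene Mapt differed by a log2 fold change of -0.05 ± 0.04 (SE), and the prion protein gene Prnp by -0.06 ± 0.05. Markers of cortical excitatory neurons, interneurons, astrocytes, microglia and oligodendrocytes were detected in every mouse. By genotype, 3 of 6 excitatory neuron markers were lower in Adrb1+/m;PS19 mice at an unadjusted p of 0.05 (edgeR), beside 1.37% of all genes tested. The 6 markers summed to 1476 to 1709.9 CPM in PS19 and 1327 to 1536 CPM in Adrb1+/m;PS19 mice. Of 6 interneuron markers, 2 were higher, beside 1.42% of all genes, and 1 was lower. After adjustment over all genes, 0 of the markers in either list passed. The part of cell makeup in the chaperone values by genotype was not tested. Choroid plexus markers (5 genes, among them Ttr) ranged in summed level from 25.0 to 367 CPM in PS19 mice and from 27.3 to 582 CPM in Adrb1+/m;PS19 mice. Mice m668 and m658 stood apart with the highest sums, m659 followed with 147 CPM, and no other mouse passed 74.2 CPM. The correlations with Hsph1 that passed unadjusted are given below with and without m668 and m658. In a bulk sample, fewer cells of a type and less RNA per cell cannot be told apart.

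Of the 72 chaperone genes, 63 (87.5%) passed the filter on low counts. The other 9 were Hspb2, Hspb7, Hspb9, Dnajb7, Dnajb8, Dnajb13, Dnajc5b, Dnajc5g and Dnajc22, none of which reached more than 15 counts in any mouse, and Dnajc5g was at 0 in all. Among those tested, levels per kilobase of gene model spanned from 0.941 CPM per kb (Dnajc25) to 459 CPM per kb (Hsp90ab1). The cytosolic Hsp90 genes and the constitutive Hsp70 stood far above the rest: Hsp90ab1 at 459, Hspa8 at 364 and Hsp90aa1 at 303 CPM per kb, each as a mean over 8 mice. Their ranges over mice, 422 to 491, 339 to 391 and 294 to 326 CPM per kb, did not overlap. Dnaja2, a J-domain partner of Hspa8, came next at 66.7 CPM per kb. Hspd1 (61.2), the vesicle protein Dnajc5 (59.0), the ER Hsp90 Hsp90b1 (58.7), the clathrin uncoating partner Dnajc6 (58.3), the mitochondrial Hsp70 Hspa9 (55.5) and the ER Hsp70 Hspa5 (54.6) followed in CPM per kb, and neighbours in this order had ranges over mice that overlapped. Genes that heat induces lay far apart in level. Besides Hsp90aa1 and Hspd1, Hsph1 stood at 44.2 CPM per kb, Hspe1 at 38.4, Dnajb1 at 16.4, Hspb1 at 6.6, Hspa1b at 3.74 and Hspa1a at 2.33. How reads were split between the near-identical Hspa1a and Hspa1b is uncertain.

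**Figure D1:**
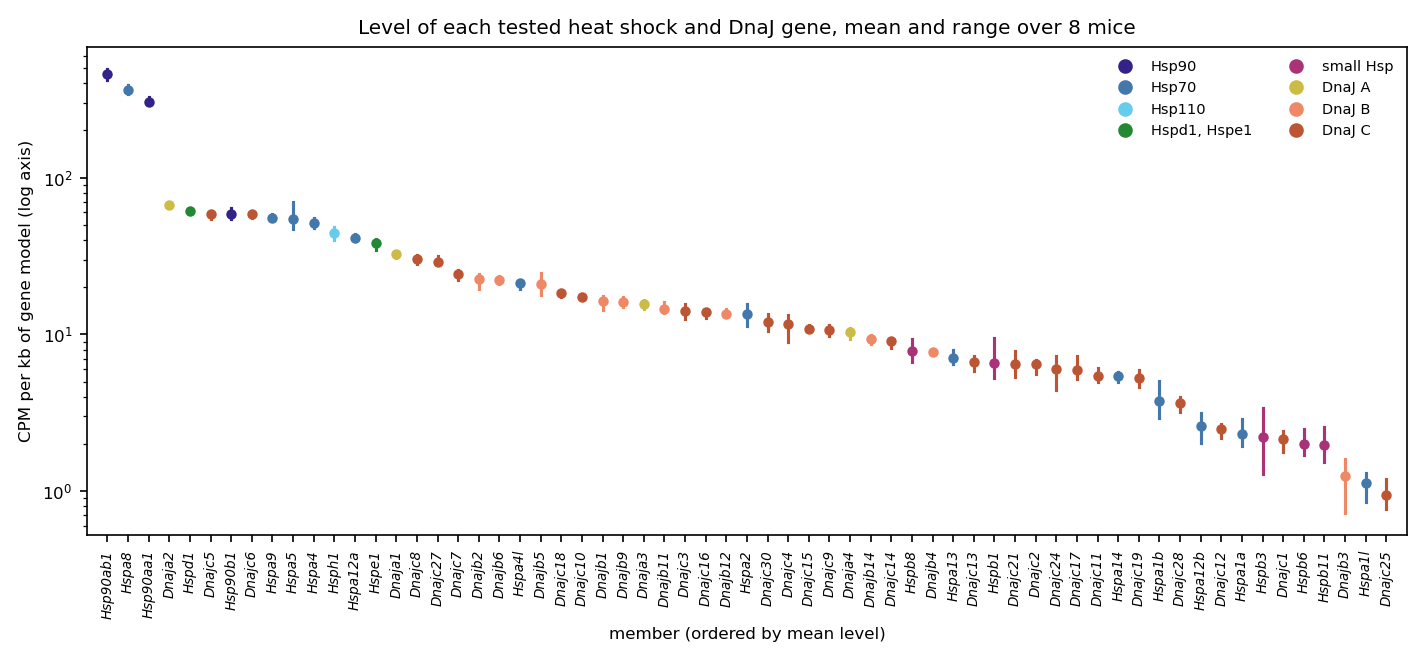
Mean level of each of the 63 tested chaperone genes in CPM per kilobase of gene model on a log axis, with vertical lines from the lowest to the highest of 8 mice and colours for gene families. Hsp90ab1, Hspa8 and Hsp90aa1 lie between 303 and 459 CPM per kb, and the next gene, Dnaja2, at 66.7.

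The comparison of genotypes asked whether the Adrb1 mutation moved chaperone RNA in the tau-expressing cortex. After correction over all 17195 genes tested, 0 of the 63 chaperones passed (edgeR's quasi-likelihood test, Benjamini-Hochberg adjusted p of 0.9996 for each), as did 0 with DESeq2. At an unadjusted p below 0.05, 2 of 63 (3.17%) passed, beside 2.8% of all genes tested. Of these 1 was higher in Adrb1+/m;PS19 mice, beside 1.42% of all genes, and 1 lower, beside 1.37%. The share of chaperones thus lay near the background. The median log2 fold change of the 63 genes was 0.02, with 40 above 0 and 23 below, beside 0.0005 over all genes, and the single values ran from -0.31 (Hspb1) to 0.48 (Hspb3). Unadjusted p-values below serve to rank genes and do not mark changes that survive correction.

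Among the cytosolic Hsp70 genes, Hspa8 (chr9:40800984-40810087, GRCm38), the constitutive Hsp70 that also strips clathrin from vesicles, read 1480.0, 1614, 1459 and 1645 CPM in the PS19 mice m677, m668, m665 and m659. In the Adrb1+/m;PS19 mice m671, m661, m660 and m658 it read 1594, 1486, 1568 and 1681 CPM. The groups overlapped over nearly their whole range, and the log2 fold change was 0.03 ± 0.05 (SE). The heat-inducible copies Hspa1a and Hspa1b lie next to each other (chr17:34969190-34972156 and chr17:34956436-34959238) and are nearly identical, so how reads were split between them is uncertain. Hspa1b read 10.7, 11.5, 9.25 and 14.0 CPM in PS19 and 9.72, 8.24, 8.51 and 11.9 CPM in Adrb1+/m;PS19 mice, in the order of mice just given, which is kept below. The highest value was that of m659, the groups overlapped, and the difference of -0.24 ± 0.15 on the log2 scale had an unadjusted p of 0.129. Hspa1a differed by -0.18 ± 0.15 with a p of 0.253. The 6 cytosolic Hsp70 genes (with Hspa1l, Hspa2 and Hspa14) gave 2 positive and 4 negative fold changes, and 0 passed even the unadjusted test.

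Among the Hsp110 exchange factors, Hsph1 (chr5:149614287-149636376) read 290.0, 346, 313 and 329.9 CPM in PS19 and 316, 309, 317 and 351 CPM in Adrb1+/m;PS19 mice. Its lowest value was in m677 and its highest in m658 and m668, so the spread lay within the genotypes, and the log2 fold change was 0.02 ± 0.06. Its relatives Hspa4 and Hspa4l each had a log2 fold change of 0.05, with SEs of 0.05 and 0.06. Hsp90ab1, the constitutive cytosolic Hsp90, read 1360.4, 1399, 1266 and 1474 CPM in PS19 and 1408, 1323, 1382 and 1399.7 CPM in Adrb1+/m;PS19 mice, a log2 fold change of 0.00 ± 0.05. Hsp90aa1, the inducible form, averaged 1168 ± 15 CPM and 1211 ± 53.8 CPM (SD, n = 4), with a log2 fold change of 0.05 ± 0.04 and a p of 0.253.

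Among the small heat shock proteins, Hspb1 (Hsp27 in humans), which buffers unfolded proteins and actin, read 8.76, 5.45, 6.14 and 9.82 CPM in PS19 and 5.46, 6.03, 6.05 and 6.73 CPM in Adrb1+/m;PS19 mice. m659 and m677, both PS19, were high and the other 6 mice lay between 5.45 and 6.73 CPM. The difference was -0.31 ± 0.18 on the log2 scale with a p of 0.111, and -0.49 with a p of 0.0248 in edgeR without m668 and m658. Hspb3, best known from muscle, read 1.41, 1.38, 1.89 and 1.02 CPM against 2.04, 1.01, 2.35 and 2.66 CPM. These low counts overlapped between groups, and the log2 fold change of 0.48 ± 0.32 had a p of 0.159.

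Among the J-domain proteins, Dnajb14, a membrane-anchored J protein of the ER (chr3:137867675-137916557), read 139, 136, 143 and 143 CPM in PS19 and 145, 153, 156 and 154 CPM in Adrb1+/m;PS19 mice. Every Adrb1+/m;PS19 mouse lay above every PS19 mouse, and the log2 fold change was 0.12 ± 0.05 with an unadjusted p of 0.0305. Without m668 and m658 it was 0.09 with a p of 0.132, so the unadjusted call ended there. Dnajc21, a cofactor of ribosome maturation (chr15:10446756-10470516), read 33.3, 26.6, 37.3 and 36.2 CPM in PS19 and 26.6, 32, 25.5 and 28.4 CPM in Adrb1+/m;PS19 mice. m668 lay among the Adrb1+/m;PS19 mice and the groups overlapped, while the log2 fold change was -0.25 ± 0.10 with an unadjusted p of 0.0342. Leaving out m677, m668, m661, m660 or m658 ended the unadjusted call of Dnajb14, and leaving out any mouse but m668 or m661 ended that of Dnajc21. Dnajb14 also overlaps predicted genes on the opposite strand.

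Dnajb1, the inducible Hsp40 that works with Hspa8 in pulling apart aggregates, had the next smallest p among genes lower in Adrb1+/m;PS19 mice. It read 52.4, 56.2, 53.2 and 56.3 CPM in PS19 and 53.5, 51.1, 45.7 and 50.8 CPM in Adrb1+/m;PS19 mice, overlapping only through m671, with a log2 fold change of -0.12 ± 0.06 and a p of 0.0807. Dnajc2, a ribosome-bound J protein, differed by 0.11 ± 0.07 with a p of 0.143. Dnajb4, a cytosolic relative of Dnajb1, had the lowest coefficient of variation over 8 mice of the group, at 1.91%. That is below the 2.89% that counting alone would give, so the rank does not show a steadier gene. Dnajb4 read 67.4, 68.5, 69.7 and 68.5 CPM in PS19 and 67.1, 65.9, 67.2 and 66.1 CPM in Adrb1+/m;PS19 mice. The groups did not overlap, but the log2 fold change was only -0.04 ± 0.05 with a p of 0.394. Genes known for handling aggregation-prone proteins in neurons did not pass either: the log2 fold change was -0.03 ± 0.07 for Dnajb2, 0.06 ± 0.06 for Dnajb6 and 0.02 ± 0.05 for Dnajc7. Dnajc7 overlaps the oligodendrocyte gene Cnp on the opposite strand, and Dnaja1 overlaps Smu1. The strand setting of the counting is not given in the sources used here, so reads of such pairs cannot be told apart.

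At the synapse, Dnajc5 (cysteine string protein, which keeps the vesicle fusion protein SNAP-25 folded) read 379, 417, 427 and 404 CPM in PS19 and 411, 427, 398 and 418 CPM in Adrb1+/m;PS19 mice. Dnajc6 (auxilin, which recruits Hspa8 to clathrin coats) read 333, 350.4, 363 and 359.5 CPM against 349, 344, 329 and 327 CPM. Both overlapped between groups, at log2 fold changes of 0.02 ± 0.05 and -0.06 ± 0.05.

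The mitochondrial chaperonin genes Hspd1 (Hsp60) and Hspe1 (Hsp10) sit head to head on chromosome 1 (chr1:55077835-55088243 and chr1:55088132-55091307 in the deposited annotation, where their ends overlap). Hspd1 read 156, 160.3, 154 and 162 CPM in PS19 and 163, 162, 169.8 and 167 CPM in Adrb1+/m;PS19 mice. All Adrb1+/m;PS19 values lay above the PS19 values, the nearest by a fraction of a CPM, and the log2 fold change was 0.06 ± 0.05 with a p of 0.185. Hspe1 averaged 55.9 ± 3.29 CPM and 57.3 ± 2.94 CPM (SD, n = 4), a log2 fold change of 0.04 ± 0.06. Hspa9, the Hsp70 that pulls proteins into mitochondria, differed by 0.04 ± 0.04 on the same scale. With Dnajb14 and Dnajb4, Hspd1 made 3 of 63 chaperones (4.76%) whose groups did not overlap, beside 2.02% of all genes tested. The 2 higher stand beside 1.02% of all genes and the 1 lower beside 1%. Over the 8 mice Hspd1 and Hspe1 had a Pearson r of 0.63 (exact permutation p = 0.0912) and a Spearman rho of 0.55 (exact permutation p = 0.171), and r was -0.13 without the 2 mice farthest from the median of Hspd1.

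The heat shock element, the binding motif of Hsf1, was searched on both strands as GAA, any 2 bases, TTC, any 2 bases and GAA, in the 250 bases before each RefSeq gene start (GRCm38.p6). Of the 58 chaperone genes with an entry, 3 held it (Dnajb6, Hspd1 and Hspe1), beside 0.514% of 27025 genes. The chaperones without an entry, among them Hspa8, Hsp90aa1, Hsp90ab1, Hspa9 and Hspa13, were not searched. Hspd1 and Hspe1 each held 2 overlapping matches, which are the same pair of matches read from opposite strands. The pair is thus 1 stretch of the genome, and 1 match of it is printed for each gene. Hspd1 has another RefSeq start, further upstream, whose window holds no match, and its printed distance is from the start nearer the gene body. The printed sites of Hspd1 and Dnajb6 lie inside their deposited gene models. A match is a description of letters, and a gene without it may carry other forms of the element or sites elsewhere. The 30-base stretches are shown because they carry the searched letters next to these genes, with the motif in capitals:
Hspe1, chr1:55088056-55088085, plus strand, 71 bases before the start: ccgttctaGAACCTTCCGGAAggccccgcg
Hspd1, chr1:55088050-55088079, minus strand, 126 bases before the start: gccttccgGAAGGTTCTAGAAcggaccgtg
Dnajb6, chr5:29735844-29735873, plus strand, 33 or 114 bases before its RefSeq starts: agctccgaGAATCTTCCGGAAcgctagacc

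In the ER, Hspa5 (BiP or Grp78; chr2:34771970-34777547) is the main Hsp70 of the ER and the usual readout of the unfolded protein response. It read 249, 226, 199.8 and 295 CPM in PS19 and 217, 210.1, 212 and 238 CPM in Adrb1+/m;PS19 mice. m659 was the highest and m665 the lowest, both PS19, and the 4 Adrb1+/m;PS19 mice lay between them, with a log2 fold change of -0.15 ± 0.09 and a p of 0.145. Its spread over mice, a coefficient of variation of 13.2%, was far above the 1.57% that counting alone would give at this depth, and among chaperones above 100 CPM it was the widest with that of Dnajb5 (12.9%). Hsp90b1 (Grp94) averaged 235 ± 10.2 CPM and 238 ± 16.2 CPM, and Dnajc3 (p58IPK) 71.9 ± 7.71 CPM and 72.4 ± 3.39 CPM (SD, n = 4). The list of 8 ER members used here does not hold the ER membrane J proteins Dnajb12 and Dnajb14. Of these 8 listed members, 0 passed the unadjusted test by genotype, and 4 fold changes were positive and 4 negative. Outside the list, Dnajb14 passed it (edgeR p of 0.0305) and Dnajb12 did not (edgeR p of 0.450).

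The ER stress element, which ATF6 binds together with NF-Y, was searched on both strands as CCAAT, any 9 bases and CCACG in the same windows. It was found before 3 of the 58 chaperone genes (Hspa5, Hsp90b1 and Dnajc3, all of the ER), beside 0.13% of the 27025 genes. The site of Hspa5 lies before its RefSeq start but inside the deposited gene model, which starts further upstream. The sites are shown because these genes are the ER members whose levels are compared with Hspa5 below, with the motif in capitals:
Hspa5, chr2:34772020-34772049, plus strand, 46 bases before the start: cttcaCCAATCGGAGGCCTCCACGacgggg
Dnajc3, chr14:118937822-118937851, plus strand, 86 bases before the start: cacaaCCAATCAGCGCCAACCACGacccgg
Hsp90b1, chr10:86705632-86705661, minus strand, 193 bases before the start: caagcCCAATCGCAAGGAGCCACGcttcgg
Hsp90b1, chr10:86705527-86705556, minus strand, 88 bases before the start, motif on the other strand: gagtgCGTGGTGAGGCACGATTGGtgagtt
Hsp90b1 holds it in both orientations. Its upstream region that lies outside the deposited gene model (185 bases, chr10:86705510-86705694, minus strand, 5′ to 3′) shows the spacing of the pair:
Hsp90b1 upstream: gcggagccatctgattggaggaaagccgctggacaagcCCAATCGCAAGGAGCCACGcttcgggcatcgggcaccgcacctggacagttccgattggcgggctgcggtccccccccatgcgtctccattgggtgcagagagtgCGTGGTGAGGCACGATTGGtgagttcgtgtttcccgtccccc

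**Figure D2:**
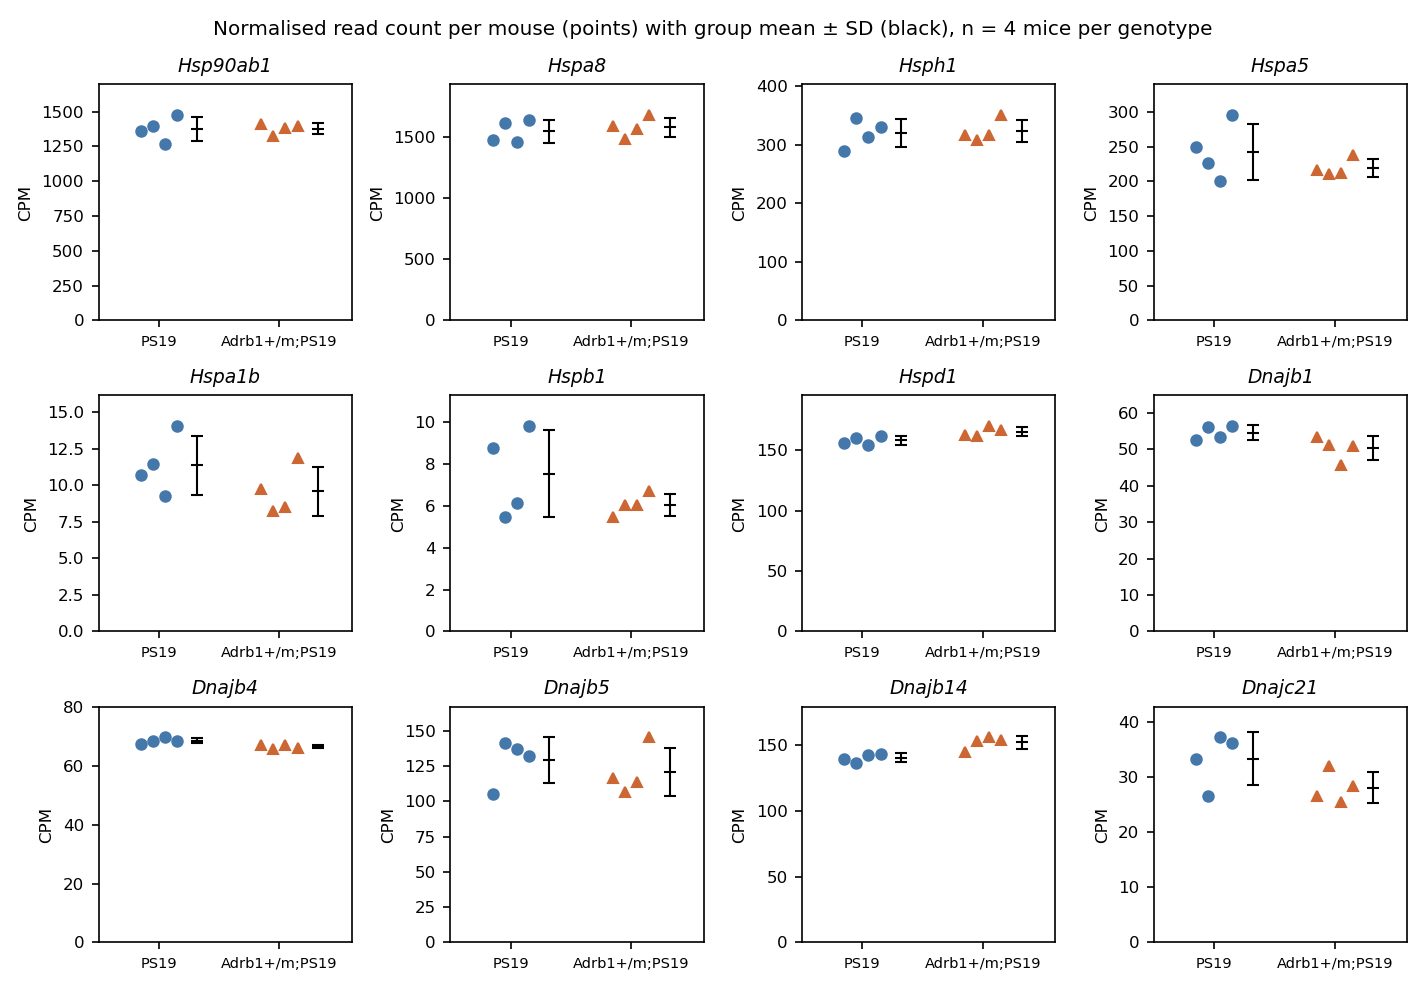
CPM of 12 chaperone genes in each mouse (circles PS19, triangles Adrb1+/m;PS19) with the group mean ± SD in black, n = 4 mice per genotype, axes from 0. Dnajb14 and Hspd1 are higher and Dnajb4 lower in every Adrb1+/m;PS19 mouse, by small steps, while Hspa5, Hspa1b, Hspb1 and Dnajb5 spread widely within a genotype.

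Since genotype left few marks on these genes, the next question was which chaperones varied together over the mice. Correlations used log2 CPM over all 8 mice, with Hsph1 as the gene of the cytosolic heat shock system and Hspa5 as that of the ER, and with exact permutation p-values adjusted over 17194 genes. The 2 genes were themselves only weakly related (r = 0.17, rho = 0.33, exact permutation p of 0.69 and 0.43). Across all 1953 pairs of tested chaperones the median r was 0.01, with 3.69% of pairs above 0.7 and 2.87% below -0.7. Pairs of all genes tested had 3.16% above 0.7 and 3.05% below -0.7, so the chaperone pairs lay near the background. The pair with the highest r was Hspa1b with Dnajb12 (0.95), and that with the lowest was Dnajc11 with Dnajb9 (-0.96).

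With Hsph1, 10 of 62 chaperones (16.1%) passed an unadjusted exact permutation p of 0.05, beside 8.94% of all genes. Of these 6 had a positive r, beside 4.55% of all genes, and 4 a negative r, beside 4.39%. None passed after adjustment, nor did any other gene. Hspa4, an exchange factor of the same family, read 265, 298, 274 and 284 CPM in PS19 and 284, 288, 284 and 304 CPM in Adrb1+/m;PS19 mice. Like Hsph1 it was lowest in m677 and highest in m658 and m668. Its r was 0.91 (exact permutation p = 0.00397, adjusted 0.404) and its rho 0.74 (exact permutation p = 0.0458). Dnajb5, a J protein of brain and heart, read 105, 141, 137 and 132 CPM against 116, 107, 114 and 145 CPM, and had an r of 0.85 (exact permutation p = 0.00585, adjusted 0.410) and a rho of 0.83. Hspa8 had an r of 0.83 (exact permutation p = 0.0093, adjusted 0.416) and a rho of 0.88. The mitochondrial import factor Dnajc19 ran the other way, at 23.8, 19.7, 22.1 and 21.9 CPM against 21.6, 22.1, 20.3 and 18.6 CPM. Its r was -0.90 (exact permutation p = 0.0025, adjusted 0.379) and its rho -0.93, and it overlaps Fxr1 on the opposite strand.

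The other positive members were Hspa13 (0.76), Dnaja3 (0.72) and Dnajc10 (0.72), and the other negative ones Dnajb6 (-0.78), Dnajb3 (-0.77) and Dnajc4 (-0.74). Without m658 and m677, the mice farthest from its median, r was 0.70 for Hspa4, 0.71 for Dnajb5, 0.72 for Hspa8 and -0.70 for Dnajc19. Without m668 and m658, the mice high in choroid plexus markers and also highest in Hsph1, only 1 chaperone (Dnaja3) passed at an unadjusted exact permutation p of 0.05 over the 6 other mice, beside 4.24% of all genes. The r values then were 0.74 for Hspa4, 0.67 for Dnajb5, 0.74 for Hspa8 and -0.68 for Dnajc19. They were 0.96 for Dnaja3, 0.66 for Hspa13 and -0.63 for Dnajb6. For Dnajc4 r went to -0.39, for Dnajc10 to 0.14 and for Dnajb3 to -0.05, so the relations of Dnajc10 and Dnajb3 rested on those mice. Over all 8 mice with the genotype means removed, r ran from 0.72 (Dnajc10) to 0.96 (Hspa4) over the positive members named. Over the negative ones it ran from -0.94 (Dnajc19) to -0.76 (Dnajc4).

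**Figure D3:**
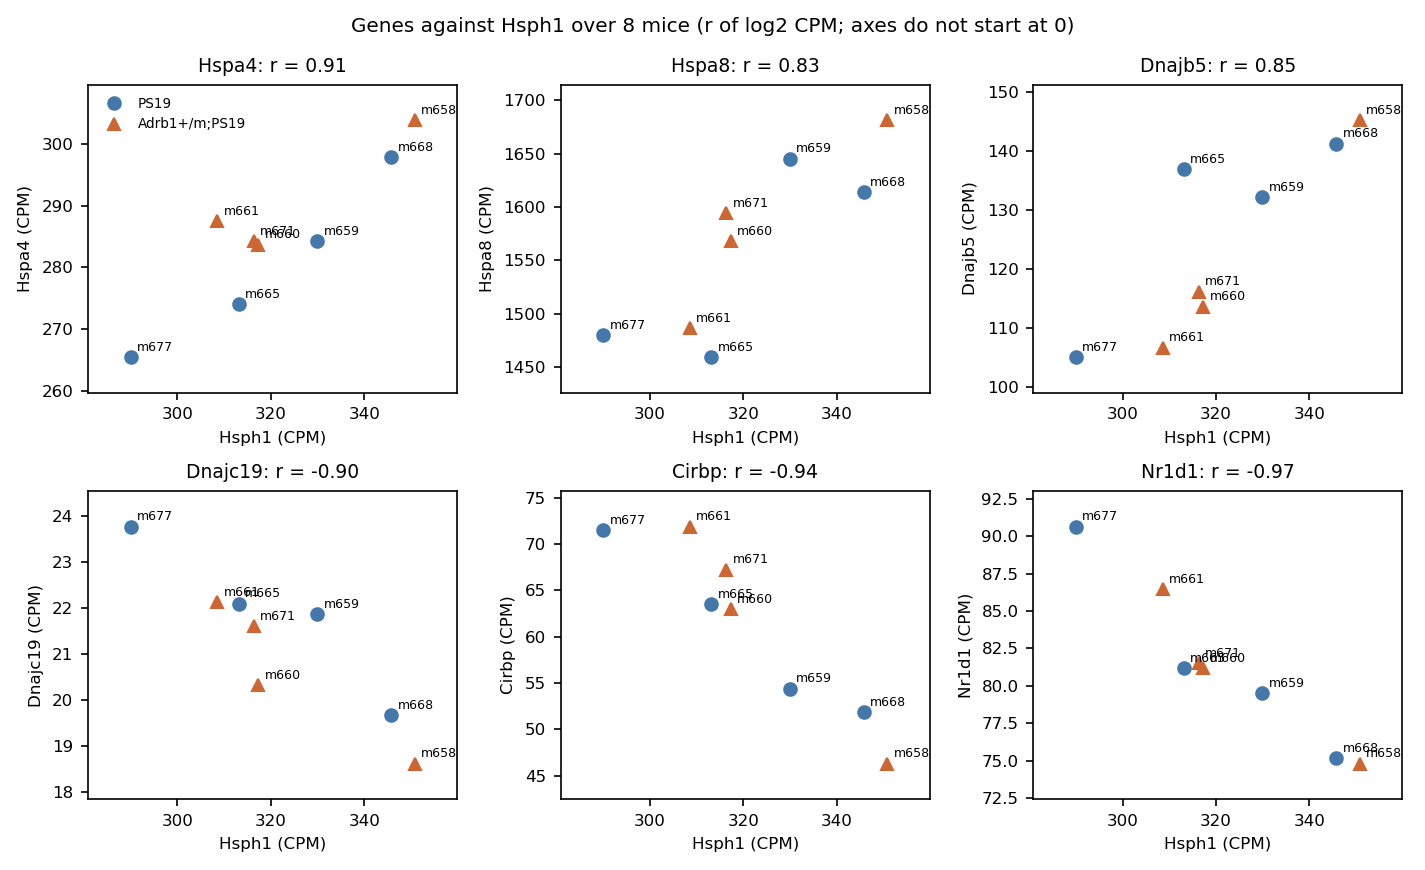
CPM of 6 genes against CPM of Hsph1 in 8 mice (circles PS19, triangles Adrb1+/m;PS19, each labelled with the mouse), axes not from 0 and r of log2 CPM above each panel. Hspa4, Hspa8 and Dnajb5 have a positive r with Hsph1 (0.91, 0.83 and 0.85) and Dnajc19, Cirbp and Nr1d1 a negative one (-0.90, -0.94 and -0.97).

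Genes outside the family give the setting of this axis. Cirbp and Rbm3, RNA-binding proteins that rise when cells are cooled, both had a negative r with Hsph1. Cirbp read 71.5, 51.8, 63.5 and 54.4 CPM in PS19 and 67.2, 71.9, 63.0 and 46.3 CPM in Adrb1+/m;PS19 mice, lowest in m658 and m668 where Hsph1 was highest. Its r was -0.94 (exact permutation p = 0.000372, adjusted 0.291), its rho -0.95, and its r without m658 and m677 -0.94. Without m668 and m658 it was -0.84 (exact permutation p = 0.0611). Rbm3 had an r of -0.76 (exact permutation p = 0.0307, adjusted 0.506) and a rho of -0.81, and its r was -0.38 without m668 and m658. Neither gene passed by genotype (log2 fold changes of 0.04 ± 0.12 and -0.04 ± 0.13).

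Before adjustment, 4 of 11 clock genes passed with a negative r, beside 4.39% of all genes, and 1 with a positive r, beside 4.55%. Nr1d1 (Rev-erb alpha), which represses Arntl, read 90.6, 75.2, 81.2 and 79.5 CPM in PS19 and 81.5, 86.4, 81.2 and 74.8 CPM in Adrb1+/m;PS19 mice, with an r of -0.97 (exact permutation p = 7.44e-05, adjusted 0.213) and a rho of -0.98. It kept an r of -0.93 both without m658 and m677 and without m668 and m658. Arntl (Bmal1) had an r of 0.89 (exact permutation p = 0.00503, adjusted 0.405) and 0.66 without m668 and m658. The clock output gene Tef had an r of -0.78, and -0.56 without them.

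Cell type markers moved along the same axis. All 6 oligodendrocyte markers passed with negative r (median -0.78), beside 4.39% of all genes, led by Cnp at -0.93 (exact permutation p = 0.000992, adjusted 0.301). Pairs of these markers had a median r of 0.91, so their calls are not independent. Their summed level ran from 4931 to 6625 CPM in PS19 and from 5169 to 6165 CPM in Adrb1+/m;PS19 mice. Of the 5 choroid plexus markers, 3 passed with positive r, beside 4.55% of all genes, Ttr with 0.94 (exact permutation p = 0.000248, adjusted 0.291). Without m668 and m658, r ran from -0.85 (Cnp) to -0.49 (Mog) over the oligodendrocyte markers and from -0.33 (Clic6) to 0.83 (Ttr) over the choroid plexus markers. The 6 striatum markers had r of 0.55 to 0.65 with Hsph1, of which 0 passed, and 0.20 to 0.40 without m668 and m658. By genotype all 6 had positive fold changes (median 0.33 on the log2 scale), of which 0 passed, and their summed level ran from 508 to 1090 CPM in PS19 and from 533 to 1229.7 CPM in Adrb1+/m;PS19 mice. No marker of these lists was at 0 in any mouse. The part of oligodendrocyte, choroid plexus or striatal RNA, or of the time of day or temperature at collection, in the Hsph1 relations was not tested, and no label gives a time of collection. Total counts had an r of -0.31 with Hsph1 (exact permutation p = 0.464).

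In the other pathway lists few genes passed with Hsph1. Of 12 heat shock response genes outside the family, such as Bag3, Stip1 and Ahsa1, 0 passed, and the median r was -0.03. Among 20 co-chaperones, 2 passed (10%), near the 8.94% of all genes. These were Sil1, the exchange factor of Hspa5, with an r of 0.84 (exact permutation p = 0.00965, adjusted 0.416), and the Hsp90 cofactor Fkbp5 with 0.75. Without m668 and m658 their r was 0.72 and 0.38. Of the 7 subunits measured of the cytosolic chaperonin TRiC, 0 passed, but 6 had a positive r. Their median r was 0.44, beside -0.01 over all genes. Of 14 unfolded protein response genes outside the family, 1 passed, with a negative r, beside 4.39% of all genes. Of these 14, 11 had a positive r, and the median was 0.22. Hsf1 itself had an r of -0.17 with Hsph1 and a log2 fold change by genotype of -0.15 ± 0.07 (unadjusted p of 0.0581).

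With Hspa5, 5 of 62 chaperones (8.06%) passed the unadjusted exact permutation test, beside 6.71% of all genes, and 0 after adjustment. Of these 4 had a positive r, beside 3.05% of all genes, and 1 a negative r, beside 3.66%. The share lay near the background. Hspa1b had an r of 0.87 (exact permutation p = 0.00419, adjusted 0.583) and a rho of 0.86, and r was 0.81 without m659 and m677, the mice farthest from the median of Hspa5. Its near-identical copy Hspa1a had an r of only 0.30, but how reads were split between the copies is uncertain. Dnajb12, an ER membrane J protein, read 45.9, 47.1, 43.8 and 48.6 CPM in PS19 and 45.9, 43.7, 43.2 and 46.6 CPM in Adrb1+/m;PS19 mice. Its r was 0.83 (exact permutation p = 0.00662, adjusted 0.583) with 0.81 left without m659 and m677. Hsp90ab1 had an r of 0.76 (exact permutation p = 0.0345, adjusted 0.731). Hspb1 had an r of 0.86 (exact permutation p = 0.00764, adjusted 0.591), but its rho was 0.55 and its r fell to 0.19 without m659 and m677, so that relation rested on those mice. Hspa14, a ribosome-associated Hsp70, was negative at -0.77 (exact permutation p = 0.0163, adjusted 0.654).

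The ER chaperones with the stress element did not pass with Hspa5: r was 0.65 for Dnajc3 (exact permutation p = 0.0734) and 0.59 for Hsp90b1 (exact permutation p = 0.119). With genotype means removed, r was 0.74 for Dnajc3 and 0.69 for Hsp90b1. A permutation over all mice is not exact for values centred within each genotype, so no p is given for them. Of the 8 listed ER members, the 7 other than Hspa5 had a median r of 0.38 and 0 passed. Of the ER membrane J proteins outside that list, Dnajb12 passed, as given above, and Dnajb14 did not (r = -0.27). Of 14 unfolded protein response genes tested outside the family, 7 passed, all positive, at a median r of 0.70, beside 3.05% of all genes on the positive side. Calr (calreticulin) read 309, 315, 272 and 338 CPM in PS19 and 282, 281, 285 and 295 CPM in Adrb1+/m;PS19 mice, in nearly the order of Hspa5, and had an r of 0.92 (exact permutation p = 0.0026, adjusted 0.583) and a rho of 0.90. Xbp1, a transcription factor of the response, had an r of 0.92 (exact permutation p = 0.00551, adjusted 0.583), and the disulfide isomerase Pdia6 one of 0.91 (exact permutation p = 0.00273, adjusted 0.583). Without m659 and m677 these were 0.75 for Calr, 0.42 for Xbp1 and 0.63 for Pdia6, and without m668 and m658 they were 0.996, 0.96 and 0.96. The 14 genes varied together, with a median r of 0.28 over their pairs and 18.7% of pairs above 0.7, beside 3.16% of all gene pairs. Their directions are thus not independent, and their mean log2 level was highest in the PS19 mouse m659. By genotype, 12 of the 14, beside 8565 of all 17195 genes tested, had fold changes below 0. The median of the 14 was -0.09 on the log2 scale. Of the 14 genes, 1 (Creld2, -0.28 ± 0.12) passed unadjusted, beside 1.37% of all genes on the lower side. Ddit3 (Chop), which marks the death branch of the response, was listed at 0 in every mouse. The counting settings are not given in the sources used here, so this 0 cannot be read as absence of Ddit3 RNA.

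**Figure D4:**
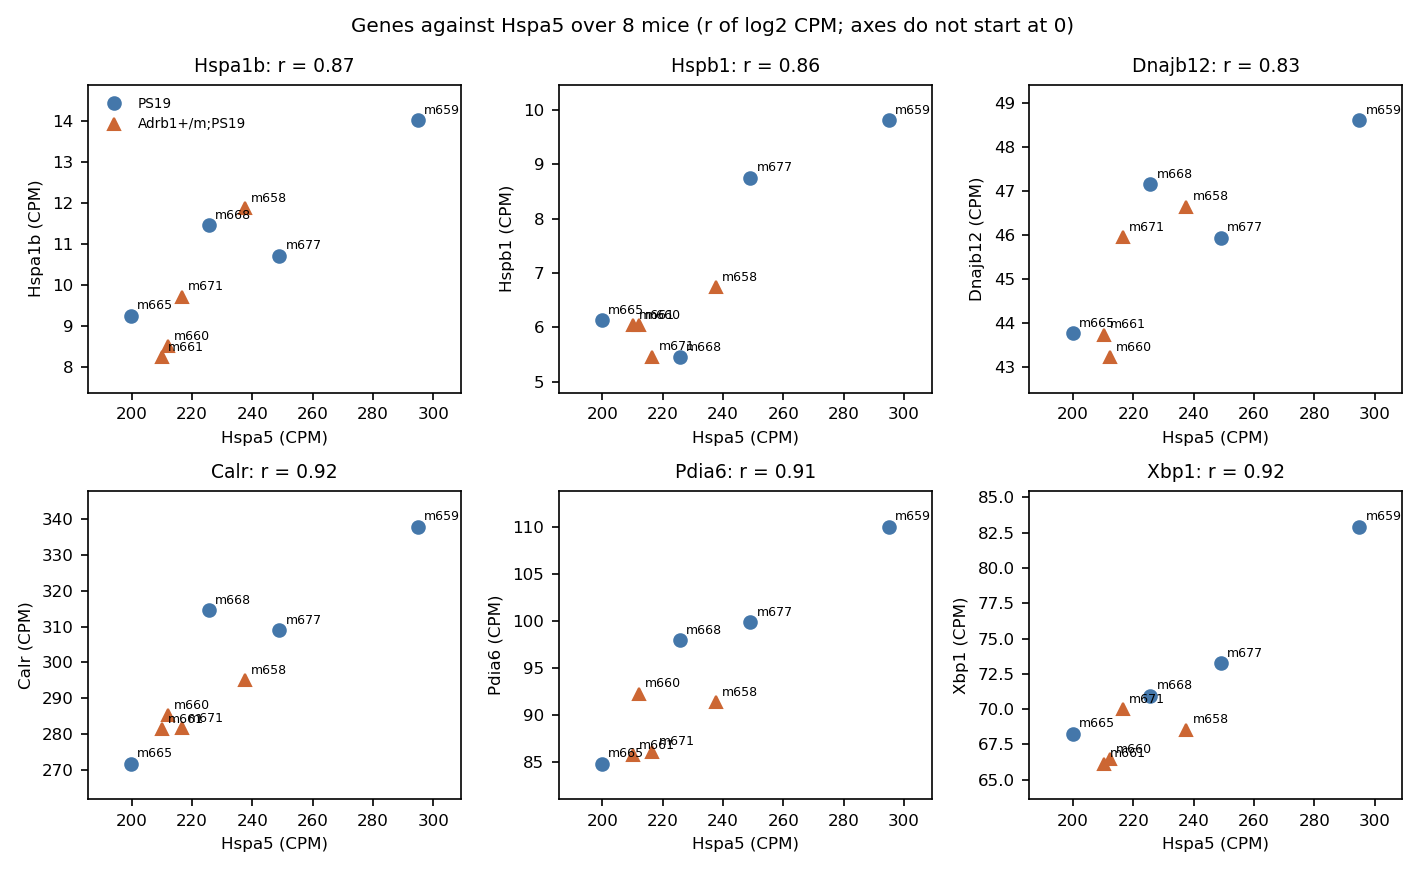
CPM of 6 genes against CPM of Hspa5 in 8 mice (circles PS19, triangles Adrb1+/m;PS19, each labelled with the mouse), axes not from 0 and r of log2 CPM above each panel. m659 is highest on both axes in all panels, and in the panel of Hspb1 r is 0.19 over the mice other than m659 and m677.

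Other lists moved with Hspa5 too. Microglial markers passed in 3 of 6 cases, all positive (median r of 0.70), beside 3.05% of all genes on the positive side, and their summed level ran from 270.1 to 422 CPM in PS19 and from 273 to 406 CPM in Adrb1+/m;PS19 mice, highest in m659. Stip1 and Ubb passed among the 12 heat shock response genes outside the family, with r of 0.82 and 0.80, beside the same 3.05%. Hsf1 had an r of 0.80 (exact permutation p = 0.0184, adjusted 0.666). Of 10 immediate early genes, 3 passed, all negative, beside 3.66% of all genes on that side. Of 6 astrocyte markers, 5 had a positive r and 0 passed, at a median r of 0.55. Their summed level ran from 1148 to 1972 CPM in PS19 and from 1188 to 2011 CPM in Adrb1+/m;PS19 mice. The part of microglial or astrocyte RNA in the Hspa5 relations was not tested. Total counts had an r of -0.51 with Hspa5 (exact permutation p = 0.195) and a rho of -0.71 (exact permutation p = 0.0576).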

How the data were processed

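RNA of mouse cortex was sequenced, aligned by the authors with HISAT2 2.0.5 to GRCm38/mm10 and counted with featureCounts 1.5.0-p3. The deposited table holds raw counts per gene; strand and multimapping settings are not given in the sources used here. Its gene length column served for CPM per kb. Genotypes, taken from the labels, were compared in edgeR 4.0.16 (R 4.3.3; filterByExpr, TMM factors, glmQLFit and glmQLFTest, Benjamini-Hochberg over 17195 genes), with the SE as the log2 fold change over the root of F. DESeq2 1.42.0, limma-voom 3.58.1, other scalings and count filters, and leaving out single mice were alternatives; leaving out m668 and m658 was added after seeing the data. Correlations used log2 CPM (prior count 2) and all 40320 orders of the mice, two-sided, so the smallest p is 2.5e-05 (0.0014 with 6 mice). Code was tested on simulated data. The members, gene lists and tests were chosen with earlier results of these data known. Named chaperones are a fixed list, those with an unadjusted p under 0.05, the 3 smallest p in each direction, those that did not overlap, and the 5 highest and 3 lowest r. Members and genes outside this rule were named after their values were seen.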

Additional observations from a re-analysis of the deposited data

Results flagged for a closer look

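Dnajb2, a neuronal J protein that sorts ubiquitinated clients, was at 82.7 CPM in the PS19 mouse m668, against 100.3 to 102.6 CPM in the other 3 PS19 mice. The gap to the nearest mouse was 0.885 of the group's range, above Dixon's 95% critical value for 4 samples. It was the only value set apart among 68 groups of 4 mice examined (34 genes in each genotype), where about 1 in 20 is set apart by chance. Without m668 the log2 fold change of Dnajb2 was -0.10 with an edgeR p of 0.105.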

How the results depend on the processing

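The number of chaperones at an unadjusted p below 0.05 by genotype was 2 under each other test, scaling and count filter and 0 to 3 when single mice were left out (0 without PS19 mouse m677 or Adrb1+/m;PS19 mouse m660, 1 without m659, 3 without m665). Which genes those were varied: Dnajc21 and Hspa5 without a filter (edgeR p of 0.0167 for Hspa5 and 0.0667 for Dnajb14), and Dnajc21 and Hspb1 without m668 and m658. The adjusted count of chaperones stayed 0 throughout. Over all genes, 481 passed unadjusted and 0 adjusted, against 1366 and 66 without a filter in edgeR; 1 passed adjusted without m661, 2 without m658 and 2 without m668 and m658. The count with Hsph1 at an unadjusted exact permutation p below 0.05 was 10, 8 with Spearman's rho and 1 without m668 and m658. That with Hspa5 was 5, and 4 without those mice. Leaving out those mice was an alternative chosen after seeing the data. Fold changes that turned sign when a mouse was left out ran from the lowest to the highest value as follows (log2): Hspa8 -0.000496 to 0.0597, Hsph1 -0.0267 to 0.0555, Hsp90ab1 -0.0335 to 0.0379, Hsp90b1 -0.0247 to 0.0484, Hspa13 -0.0836 to 0.012, Hspa14 -0.0576 to 0.0155, Hspe1 -0.00352 to 0.0628, Dnaja1 -0.0119 to 0.0376, Dnaja3 -0.0411 to 0.0200, Dnajb2 -0.0961 to 0.00148, Dnajb3 -0.0076 to 0.307, Dnajc3 -0.0344 to 0.0694, Dnajc5 -0.00764 to 0.0492, Dnajc7 -0.0143 to 0.0554 and Dnajc8 -0.00101 to 0.0526. Without m668 and m658 the sign also turned for Hsp90b1 (-0.0333), Dnaja3 (0.0027), Dnajc3 (-0.0639) and Hspa14 (0.0271). No paired analysis was possible because mouse numbers are unique and litters unnamed. The cause of these shifts was not tested. Depth limits the low genes: counting alone gives a coefficient of variation of 18.1% for Hspb3 and 20.7% for Dnajb3.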
